A study of Mus musculus with 4 samples.

Results

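The genes described here are the 3 genes of complement C1q (C1qa, C1qb and C1qc) together with Axl, Mertk, Vcam1, Hmox1, Trf, Cd68 and Adgre1, all of them associated with macrophages. Members were taken as the probe sets annotated with exactly 1 of these symbols, and the brightest probe set would have stood for a gene with several. All 10 genes had 1 such probe set each, out of 19938 genes with a probe set of their own, and all 10 reached the intensity limit of the study's methods (a log2 value of 6.5) on every array. They were measured in Esam dendritic cells (DC), the Esam-expressing CD4+ conventional DC of the spleen, sorted by flow cytometry from 4 mice that were 6 weeks old. Group cKO held 2 Runx3fl/fl/CD11c:Cre mice (genotype label DCRunx3 -/-), in which Cre driven by the CD11c promoter deletes Runx3 in DC. Group wt held 2 littermate controls (DCRunx3 +/+), and each litter gave 1 cKO and 1 wt mouse. Splenic DC were enriched on magnetic columns and gated on CD11c and MHCII and then on Esam, CD4 and CD8. Each array held RNA of 1 mouse: cKO 1 and wt 1 were littermates, as were cKO 2 and wt 2.

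C1q is the recognition molecule of the classical complement pathway. It is assembled from chains encoded by C1qa, C1qb and C1qc, which lie side by side in the mouse genome, and it is made mainly by macrophages and some DC rather than by the liver. Splenic red pulp macrophages take up aged erythrocytes and recycle their iron, and Vcam1, Hmox1 and Adgre1 (F4/80) are among the genes for which they are known. Axl and Mertk are receptor kinases that bind phosphatidylserine on dying cells through bridging ligands. Splenic CD4+ DC also carry some products of this kind on their surface.

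Since the C1q genes are neighbours, the sequence before their start sites is shown first, with Axl and Cd68 as members with a wide and a narrow difference between genotypes. The RefSeq promoter table (GRCm38.p6) held 5 of the 10 members, and the 250 bases before the annotated start are given 5′ to 3′ on the strand of the gene. Capitals mark the core letters of a RUNX site (TGTGGT), of a PU.1 site (GAGGAA) and of a Maf half-site (TGCTGA), searched on both strands. No match overlapped another. The windows are chr4:136886201-136886450 for C1qb, chr4:136892915-136893164 for C1qc, chr7:25788734-25788983 for Axl and chr11:69666171-69666420 for Cd68, all on the minus strand.
C1qb: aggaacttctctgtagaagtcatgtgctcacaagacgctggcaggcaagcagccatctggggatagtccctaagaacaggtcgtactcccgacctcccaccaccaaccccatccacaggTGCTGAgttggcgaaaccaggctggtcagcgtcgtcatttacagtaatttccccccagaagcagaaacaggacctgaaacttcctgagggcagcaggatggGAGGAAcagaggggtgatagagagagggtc
C1qc: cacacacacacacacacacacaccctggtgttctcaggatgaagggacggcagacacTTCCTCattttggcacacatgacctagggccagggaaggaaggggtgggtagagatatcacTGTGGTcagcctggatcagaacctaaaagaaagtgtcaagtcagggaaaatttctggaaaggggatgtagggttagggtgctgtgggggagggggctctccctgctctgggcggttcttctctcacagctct
Axl: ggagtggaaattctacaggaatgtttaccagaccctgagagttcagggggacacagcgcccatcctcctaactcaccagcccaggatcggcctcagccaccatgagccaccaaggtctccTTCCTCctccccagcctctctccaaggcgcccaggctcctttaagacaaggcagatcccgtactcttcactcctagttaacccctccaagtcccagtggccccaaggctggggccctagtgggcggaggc
Cd68: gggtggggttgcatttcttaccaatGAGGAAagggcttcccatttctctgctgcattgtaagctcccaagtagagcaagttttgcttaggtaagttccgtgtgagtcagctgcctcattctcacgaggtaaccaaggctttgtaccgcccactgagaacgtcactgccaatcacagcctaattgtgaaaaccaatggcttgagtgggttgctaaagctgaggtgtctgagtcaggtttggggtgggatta
C1qc held the RUNX letters 132 to 127 bases before its start and the PU.1 letters on the opposite strand. C1qb held the PU.1 letters 30 to 25 bases before its start and the Maf letters further out. Axl and Cd68 each held the PU.1 letters only, and the Mertk window (not shown) held none of these letters. Among 32851 promoter windows of the same length, 14% held the RUNX letters, 23.3% the PU.1 letters and 16.1% the Maf letters, so matches of this kind are common and only describe the sequence.

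The question put to the arrays was whether Esam DC without Runx3 differ from their wt littermates in these genes. All 10 members were higher by mean in cKO than in wt. The median difference, cKO minus wt, was 0.71 on the log2 scale, against -0.02 over the 18889 probe sets tested. In 8 members both cKO arrays lay above both wt arrays, which was so for 16.4% of all tested probe sets. None of the 10 passed limma's test after Benjamini-Hochberg adjustment over all tested probe sets, as for 0% of all probe sets, and the smallest adjusted p of any probe set was 0.0834. At an unadjusted limma p under 0.05, 5 members were higher in cKO (C1qa, C1qb, C1qc, Axl and Mertk), a call made for 4.57% of all tested probe sets. Only C1qb passed the thresholds of the study's methods (a fold of at least 1.5 and an unadjusted one-way p of at most 0.05), which 0.900% of all tested probe sets passed with a higher level in cKO. No member passed these thresholds without wt 1 (0.924% of the probe sets then tested did), whereas C1qa, C1qc and Axl passed without wt 2 (0.480%). With 1 wt array the spread in that test comes from the cKO pair alone. The median was 0.31 without wt 1 and 0.95 without wt 2. In RNA from sorted bulk populations, more cells of another type and more RNA per cell cannot be told apart.

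**Figure D1:**
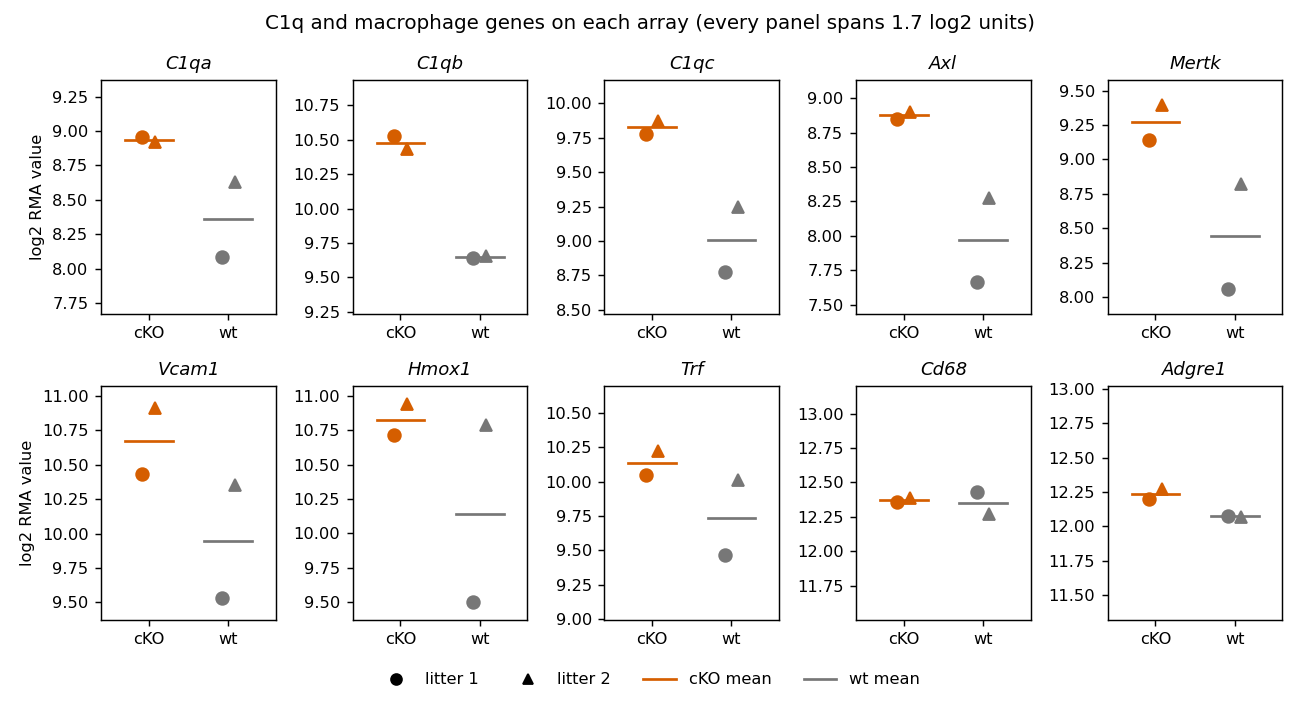
Log2 RMA value of each member on each array, cKO left of wt, with circles for litter 1, triangles for litter 2 and lines for group means. Each panel spans the same number of log2 units around its own centre. C1qb has tight pairs in both groups, Hmox1 has one wt array among the cKO values, and Cd68 and Adgre1 are nearly level.

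The C1q genes were higher in cKO on every array comparison, with C1qb the tightest. C1qb, which encodes the B chain of C1q, had log2 values of 10.53 and 10.43 in cKO 1 and cKO 2, against 9.64 and 9.66 in wt 1 and wt 2. The groups did not overlap, and the arrays of each genotype lay close together. The difference was 0.83 ± 0.09 (SE), or 1.78-fold (limma, adjusted p = 0.184). The adjusted p was 0.0443 when 1 probe set per gene was tested, so C1qb was called there, as were 0.424% of the genes, and not over all probe sets. C1qc, the C chain, had 9.78 and 9.87 in cKO, against 8.77 and 9.24 in wt. Both cKO arrays were above both wt arrays, and wt 1 was the lower of the wt pair. The difference was 0.82 ± 0.18 (SE), or 1.76-fold (limma, adjusted p = 0.368). C1qa, the A chain, had 8.96 and 8.92 in cKO, against 8.09 and 8.63 in wt. Again the groups did not overlap, but wt 2 lay closer to the cKO arrays than to wt 1. The difference was 0.58 ± 0.20 (SE), or 1.49-fold (limma, adjusted p = 0.519), and it was 0.31 without wt 1. The 3 genes thus shared their direction and a narrow cKO pair, and they differed in wt 2: the gap between wt 2 and wt 1 was 0.54 for C1qa, 0.47 for C1qc and 0.01 for C1qb.

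Both receptors for dying cells followed the order seen in C1qc. Axl, which binds the vitamin K-dependent ligand Gas6, had 8.85 and 8.90 in cKO, against 7.67 and 8.28 in wt. This was the largest difference by mean among the 10 members, 0.90 ± 0.23 (SE) or 1.87-fold (limma, adjusted p = 0.406). The cKO arrays were nearly equal, and wt 1 was well below wt 2. Without wt 1 the Axl difference was 0.60, and that of C1qb was then larger (0.82). Mertk, which binds Gas6 and protein S, had 9.14 and 9.40 in cKO, against 8.06 and 8.82 in wt. The groups did not overlap and litter 2 was the higher within each genotype. The difference was 0.83 ± 0.29 (SE), or 1.77-fold (limma, adjusted p = 0.517), and it was 0.45 without wt 1.

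For Vcam1, Hmox1 and Trf the gap between the wt mice exceeded the difference between genotypes. Vcam1, the adhesion molecule bound by the integrin VLA-4, had 10.43 and 10.91 in cKO, against 9.53 and 10.35 in wt. The lowest cKO array and the highest wt array were close, and litter 2 was higher in both genotypes. The difference of 0.73 ± 0.34 (SE), or 1.66-fold, did not pass (limma, adjusted p = 0.617). It was 0.32 without wt 1 and 1.14 without wt 2. Trf, the iron carrier transferrin, had 10.05 and 10.22 in cKO, against 9.47 and 10.01 in wt. Here wt 2 reached nearly to cKO 1, and the difference was 0.40 ± 0.21 (SE; limma, adjusted p = 0.678), or 0.12 without wt 1 and 0.67 without wt 2. Hmox1, the heme oxygenase that breaks down heme, had 10.71 and 10.94 in cKO, against 9.50 and 10.79 in wt. The groups overlapped, since wt 2 was above cKO 1, and wt 1 stood alone below the other arrays. The mean difference was 0.68 ± 0.46 (SE; limma, adjusted p = 0.743), and it was 0.04 without wt 1 and 1.32 without wt 2.

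Both general macrophage markers were almost level. Cd68, a lysosomal glycoprotein of phagocytes, had 12.36 and 12.39 in cKO, against 12.43 and 12.27 in wt. The groups overlapped and the difference was 0.02 (95% interval -0.24 to 0.29, limma, adjusted p = 0.966). Its sign was not stable, as it was -0.055 without wt 2. Adgre1, which encodes F4/80, had 12.20 and 12.27 in cKO, against 12.08 and 12.07 in wt. Both cKO arrays were above both wt arrays by a small margin, with a difference of 0.16 (95% interval -0.07 to 0.39, limma, adjusted p = 0.665). The intervals of both genes end below the differences measured for C1qb, C1qc, Axl and Mertk, although no test of one gene against another was made. Of those, only C1qb had an interval (0.59 to 1.07) above both. The intervals of C1qc (0.32 to 1.32), Axl (0.28 to 1.52) and Mertk (0.04 to 1.61) overlapped that of Adgre1.

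The members were next followed array by array, each centred on its own mean over the 4 arrays. The mean over the 10 members was 0.23 (SD over members 0.16) on cKO 1 and 0.36 (SD 0.19) on cKO 2, against -0.54 (SD 0.33) on wt 1 and -0.05 (SD 0.18) on wt 2. The members thus lay together on the cKO arrays, and wt 1, not both wt arrays alike, held most of the low values. Array wt 1 was the lowest of the 4 for 8 members, against 18.5% of all tested probe sets. The exceptions were Cd68 and Adgre1, lowest on wt 2. In 7 members (C1qa, C1qb, C1qc, Axl, Mertk, Vcam1 and Trf) the arrays ran in the order wt 1, wt 2 and then both cKO arrays, against 6.15% of all tested probe sets. Hmox1 shared the low wt 1 but not this order. With 4 arrays, no correlation between members was tested.

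**Figure D2:**
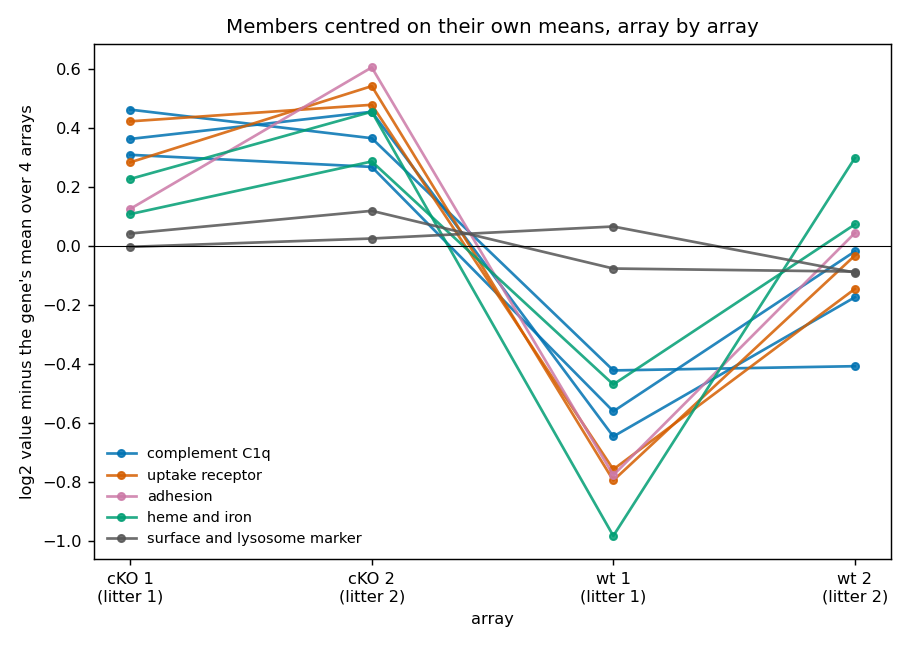
Each member's log2 value minus its mean over the 4 arrays, with cKO arrays left of wt arrays and lines coloured by role. On wt 1 most members are low and spread down to Hmox1 at -0.98, on wt 2 they range between C1qb at -0.41 and Hmox1 at 0.30, and Cd68 and Adgre1 stay near 0.

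The littermate pairs gave the same direction for 9 members, with unequal sizes. In litter 1, 9 of 10 members were higher in cKO 1 than in wt 1, with a median difference of 0.89. The exception was Cd68. In litter 2 all 10 were higher in cKO 2 than in wt 2, with a median of 0.42. For comparison, 38.2% of all tested probe sets were higher in cKO in litter 1 and 51.8% in litter 2. The difference was larger in litter 1 for 8 members, as for 39.7% of all tested probe sets. C1qb differed little between the pairs, with 0.88 in litter 1 and 0.77 in litter 2. Hmox1 differed most, with 1.21 (2.31-fold) in litter 1 and 0.16 (1.11-fold) in litter 2. With 1 array for each genotype in a litter, these differences between litters were not tested.

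**Figure D3:**
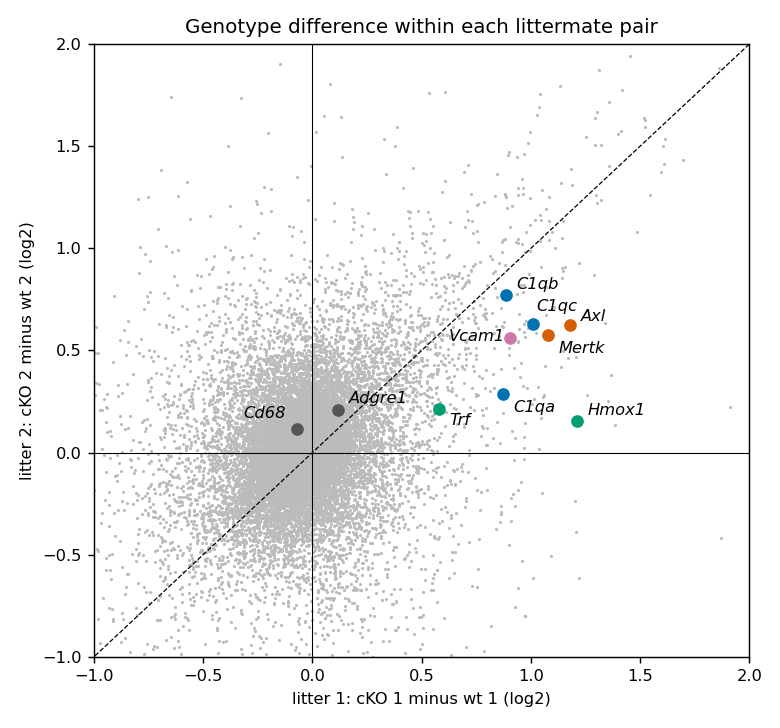
Log2 difference cKO minus wt in litter 1 (horizontal) and litter 2 (vertical), with members coloured by role as in the plot of centred values and all tested probe sets in grey inside the plotted range. The 8 other members lie right of the dashed line of equality, C1qb closest to it, while Cd68 and Adgre1 lie near the origin above it.

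The gap between the wt mice was compared with that between the cKO mice. Array wt 2 was higher than wt 1 for 8 members, with a median over all 10 of 0.54, while 41% of all tested probe sets were higher on wt 2. Array cKO 2 was also higher than cKO 1 for 8 members, against 52.5% of all tested probe sets, but the median was 0.08. The wt gap was wider than the cKO gap for 8 members, as for 64.4% of all tested probe sets. Litter 2 minus litter 1, fitted by limma with genotype as a covariate, gave a median of 0.31 over the members, against -0.02 over all tested probe sets. No member passed the adjusted threshold in this comparison, against 0.0265% of all tested probe sets. At an unadjusted p under 0.05, 2 members were higher in litter 2, against 3.27% of all tested probe sets. These were Vcam1, with 0.65 ± 0.13 (SE; limma, adjusted p = 0.634), and Mertk, with 0.51 ± 0.16 (SE; limma, adjusted p = 0.634). Hmox1 was the only member with both litter 2 arrays above both litter 1 arrays, as 15.6% of all tested probe sets had.

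Other genes of the members' pathways were taken from lists. Of 25 other complement genes, 7 were tested and 13 stayed below the limit on all arrays, among them C1ra, C2, C4a and C4b of the classical pathway and the receptors C3ar1 and C5ar1. By mean 2 of the 7 were higher and 5 lower in cKO, with a median of -0.14, and none passed the adjusted test or the study's thresholds. Cfb, factor B of the alternative pathway, had 8.08 and 7.55 in cKO, against 7.04 and 6.52 in wt (difference 1.04, limma, unadjusted p = 0.0163, adjusted p = 0.414). Array wt 1 was above wt 2 for Cfb, unlike for the C1q genes. Cfp, which encodes properdin, was at -0.16 and Cr2, complement receptor 2, at -0.22. Of the genes beside Axl and Mertk in the uptake of dying cells, 18 of 26 were tested, 14 higher and 4 lower by mean, with a median of 0.31. The ones past the study's thresholds were Cd36, a scavenger receptor (1.48), Lrp1, a receptor that binds calreticulin (1.26), Dock1, which acts in engulfment (0.99), and Pros1, the ligand protein S (0.75). Pros1 reached the limit of 6.5 only in cKO (6.98 and 6.89, against 6.32 and 6.05 in wt), so it was tested only through the group where it was high. The same held for Abca1, also among the higher genes (6.91 and 7.15 in cKO, against 6.17 and 6.44 in wt). Gas6, the ligand shared by Axl and Mertk, and Tyro3, the remaining receptor of their family, were below the limit on all arrays. Tgm2, a transglutaminase, was at -0.30.

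Of the heme and iron genes, 19 of 25 were tested, 11 higher and 8 lower by mean, with a median of 0.01. Cp, among the higher genes, reached the limit of 6.5 on cKO 1 only (6.54). The transcription factor Nfe2l2 passed the study's thresholds (0.77), with the biliverdin reductase Blvrb at 0.39 and the heme transporter Slc48a1 at 0.35. Tfrc, the transferrin receptor that takes up the product of Trf, was at -0.39. Among adhesion partners of Vcam1, 11 of 13 were tested, 4 higher and 7 lower, with a median of -0.04. Itgb7, an integrin chain that pairs with the VLA-4 alpha chain, was at -0.42 and the linker Ezr at -0.33, with Icam2 at 0.37. Among other macrophage surface genes, 10 of 14 were tested, 9 higher and 1 lower, with a median of 0.44, or 0.24 without wt 1. Clec7a, the receptor for beta-glucan (0.90), passed the study's thresholds. Adgre4, a relative of Adgre1, was at 1.57 and Csf1r, the receptor for macrophage colony-stimulating factor, at 0.36. Of the macrophage transcription factors, 12 of 16 were tested, 9 higher and 3 lower, with a median of 0.22. Irf8 (1.13), Nr1h3 (0.83) and Spic (0.73) passed the study's thresholds, and Spi1, which encodes PU.1, was at -0.20. No gene of these lists passed the adjusted test over all probe sets. With 1 probe set per gene, Dock1 (adjusted p = 0.0345, limma), Irf8 (0.0345) and Cd36 (0.0375) passed it.

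Markers of other cells that the gate could hold were set beside the members. Of 18 red pulp and marginal zone macrophage genes other than the members, 13 were tested, 11 higher and 2 lower by mean, with a median of 0.65, or 0.25 without wt 1. Their mean log2 level over 17 measured genes was 8.04 on cKO 1 and 8.23 on cKO 2, against 7.47 on wt 1 and 7.86 on wt 2, which is the array order of most members. Cd163, Fcgr1, Marco and Vsig4 were below the limit on all arrays. Siglec1, among the higher genes, reached the limit only in cKO (6.54 and 6.70, against 6.15 and 5.93 in wt), so it was tested only through that group. Itgad, an integrin of red pulp macrophages, had 10.67 and 10.87 in cKO, against 8.19 and 9.01 in wt (difference 2.17, limma, adjusted p = 0.216). Spic, the transcription factor on which red pulp macrophages depend, had 10.31 and 10.33 in cKO, against 9.70 and 9.47 in wt (difference 0.73, limma, adjusted p = 0.238). The cKO pair was tight, while wt 2 minus wt 1 was -0.23. Array wt 2 was thus the lower wt array for Spic, as for Cd68 and Adgre1 among the members and unlike for the other 8. Cd209b, a lectin of marginal zone macrophages, was at -0.62, with 5.71 and 5.78 in cKO, against 6.51 and 6.23 in wt. It reached the limit of 6.5 on wt 1 only. Of the list, Itgad, Spic and Nr1h3 passed the study's thresholds.

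The red pulp genes fell on both sides of the wt gap. Slc40a1, the iron exporter ferroportin, chosen after its values were seen, had 9.97 and 10.58 in cKO, against 8.60 and 10.20 in wt. Mrc1 and Cd5l, also chosen after their values were seen, had a low wt 1 in the same way. Mrc1, the mannose receptor, had 8.44 and 9.01 in cKO, against 7.31 and 8.59 in wt. Cd5l, a secreted macrophage protein, had 7.98 and 8.10 in cKO, against 6.60 and 7.97 in wt. As for Hmox1, wt 1 stood below the other arrays for these genes, and for Slc40a1 and Mrc1 wt 2 lay inside the cKO pair. Nr1h3, the liver X receptor alpha, had 8.03 and 7.93 in cKO, against 7.29 and 7.01 in wt, with wt 1 not the lowest. A low wt 1 was therefore not shared by all genes of the list.

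**Figure D4:**
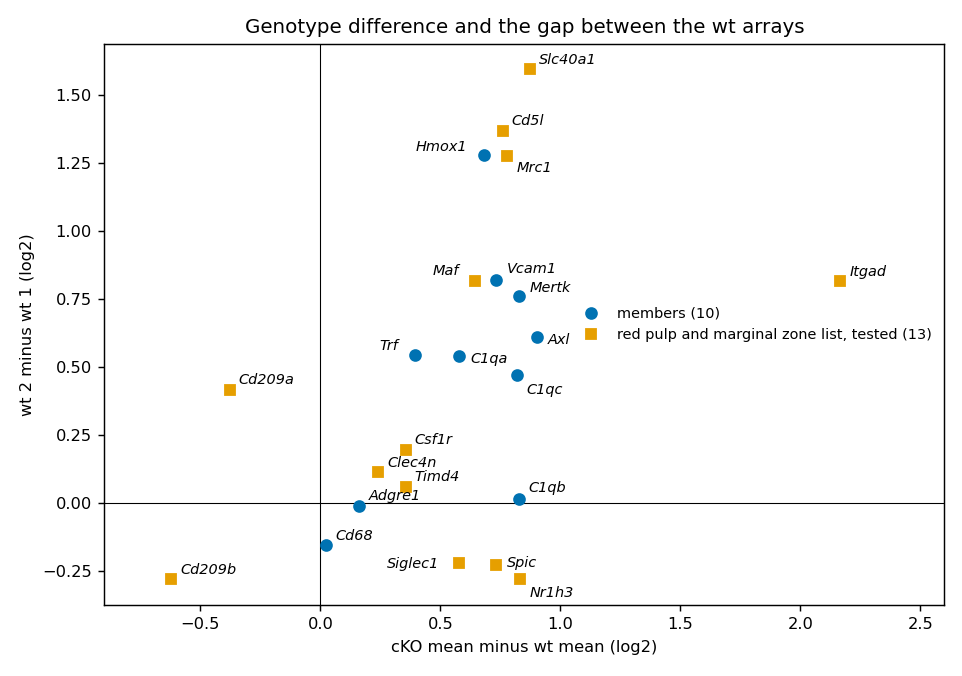
cKO mean minus wt mean (horizontal) against wt 2 minus wt 1 (vertical), both log2, for the 10 members and the 13 tested genes of the red pulp and marginal zone macrophage list. Hmox1 lies with Slc40a1, Cd5l and Mrc1 at wide wt gaps. C1qb lies near a wt gap of 0, Spic lies below 0 (-0.23), and Cd68 and Adgre1 lie near 0 on both axes.

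Genes of other cells differed to varying degrees. All 7 tested blood monocyte genes were higher in cKO by mean (median 0.70), with a mean log2 level over the measured genes of 9.09 and 9.11 in cKO, against 8.57 and 8.39 in wt. Of 12 genes of cDC1, the CD8+ conventional DC, 10 were higher and 2 lower (median 1.05), at 10.29 and 10.36 in cKO, against 9.53 and 9.46 in wt. Of 8 tested pDC genes, 7 were higher (median 0.41). The mean log2 level over the 10 measured pDC genes was 8.25 and 8.31 in cKO, against 7.76 and 7.75 in wt. In the monocyte and cDC1 lists the mean level was higher on wt 1 than on wt 2, the other way round from most members. In the pDC list the wt arrays were nearly level. Erythroid genes were below the limit on all arrays for all 6 measured, as were 10 of 12 neutrophil genes and 8 of 10 T and NK cell genes. By name, Ace of the monocyte list was at 2.03, Clec9a of the cDC1 list at 1.47 and Cox6a2 of the pDC list at 2.68, and Csf3r, a receptor of neutrophils, at 1.28. With 1 probe set per gene, Clec9a, Cox6a2 and Csf3r each passed limma's adjusted test (adjusted p = 0.0345), while Ace did not. Of 8 tested B cell genes, 5 were higher and 3 lower (median 0.24, or 0.11 without wt 2 and 0.13 without cKO 1). The kinase Blk, at -1.40, was among the lower genes, while the 1 gene past the study's thresholds was higher in cKO. The 4 tested stromal and endothelial genes had a median of 0.19, or -0.03 at a limit of 7.5. The 14 genes that define Esam DC had a median of 0.04, 9 higher and 5 lower, and Esam itself had 10.60 and 10.64 in cKO, against 10.42 and 10.10 in wt. The lists share some genes, and the part of other cells in the members' differences was not tested.

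**Figure D5:**
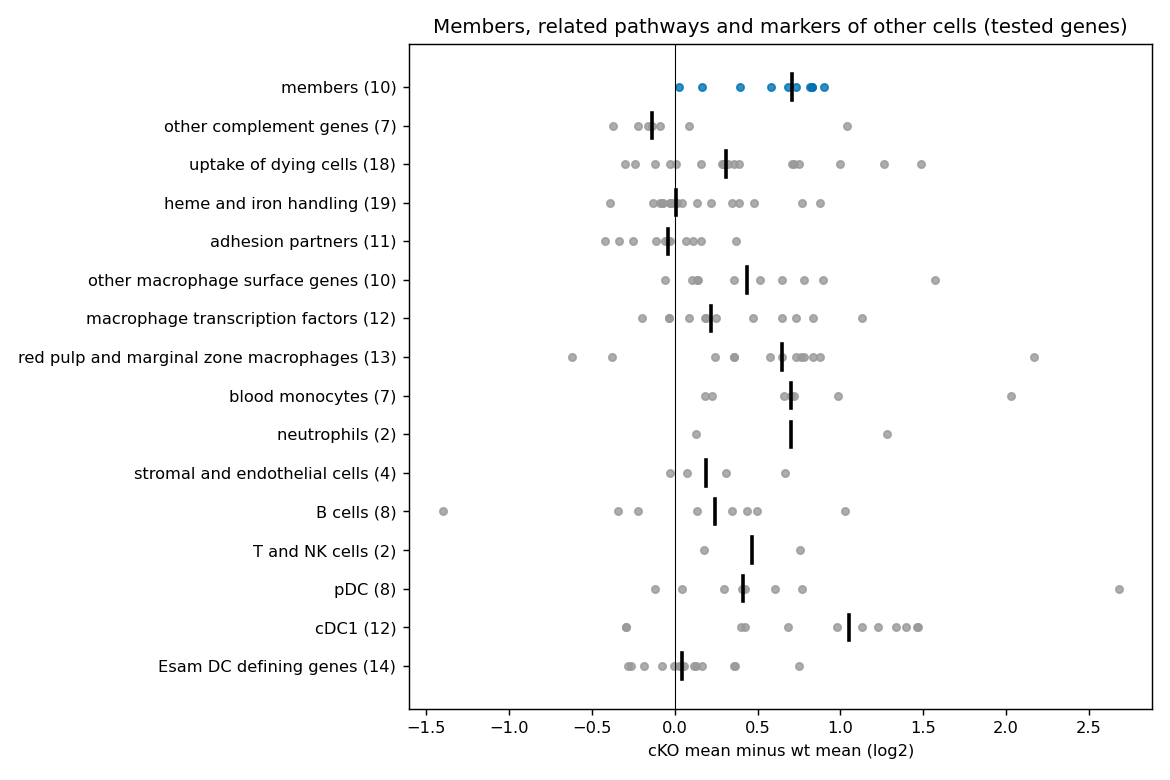
Log2 difference cKO minus wt for each tested gene (points) and the median of each list (vertical bars), with the members on top in blue and the number of tested genes in brackets. The members' median of 0.71 stands beside 0.65 for red pulp and marginal zone macrophage genes, 0.70 for monocyte genes and 1.05 for cDC1 genes, and against -0.14 for other complement genes and 0.04 for Esam DC genes.

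The genes whose 4 centred values lay nearest to the mean profile of C1qa, C1qb and C1qc, among 9884 other tested genes, were Phxr4, Gprc5c, Timp2, Dpep2 and Dmpk, at Euclidean distances of 0.05 to 0.11 log2 units. Timp2, an inhibitor of metalloproteinases, had 7.90 and 7.95 in cKO, against 6.92 and 7.35 in wt. Dpep2, a membrane dipeptidase, had 7.72 and 7.62 in cKO, against 6.80 and 7.21 in wt. Gprc5c, an orphan receptor, had 7.57 and 7.57 in cKO, against 6.67 and 7.10 in wt. The array order they share with the C1q genes follows from this choice. C1qc lay 0.14 from the mean profile, C1qa 0.22 and C1qb 0.25. Outside C1q, Axl was as near (0.25) and Mertk was next (0.36), while Hmox1 (0.69) and Cd68 (0.80) were farthest.

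As checks of the labels, Runx3 had 11.47 and 11.45 in cKO, against 11.37 and 11.51 in wt, a difference of 0.02 (limma, adjusted p = 0.973). No source used here states whether its probes lie in the deleted part, so this value checks nothing about the deletion. All 4 mice are labelled male, but Xist was at 12.78 in cKO 1 and 5.19 in cKO 2, against 12.75 in wt 1 and 5.15 in wt 2. The Y-linked Kdm5d went the other way, with 5.19 in cKO 1 and 9.89 in cKO 2, against 5.27 in wt 1 and 9.84 in wt 2. Eif2s3y, also Y-linked, had 5.12 and 10.87 in cKO, against 4.87 and 10.89 in wt. The litter 1 arrays thus had the female pattern of these genes, against the male label, and the litter 2 arrays the male pattern. Any litter difference given for the members is also a difference between arrays with the female and the male pattern. The litter and this split cannot be told apart.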

How the data were processed

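Total RNA of the sorted cells was hybridised to Affymetrix whole-transcript arrays, 1 mouse per array. The deposited values are log2 intensities that the authors obtained by RMA in Partek (processing notes name mm9), and they were used as given, without a further normalization. The methods name an exon array and the platform annotation a gene array, so probe sets were named by the platform annotation. Of 35399 probe sets, 21789 carried 1 symbol, 1621 several and 11989 none here. The 18889 probe sets with a log2 value of at least 6.5 on at least 1 array were tested.

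Differences cKO minus wt were fitted with limma 3.58.1 (R 4.3.3), two-sided, with Benjamini-Hochberg adjustment over all tested probe sets at 0.05, checked on simulated data. The study's thresholds were applied with the one-way test its methods name. Array medians lay between 6.58 and 6.62. The number of arrays, 2 per genotype, limits the precision, and levels of different probe sets were not compared. The labels give the littermate pairs: littermates deviated together (r = 0.27), so the litter was fitted as a block in an alternative. That r was taken over all tested probe sets, with Xist and the Y-linked genes included, and their part in it was not tested. Other alternatives changed the filter, the normalization and the probe set per gene, or left out an array. Named were all members, from each list described up to 4 of the genes with the smallest limma p and, where wanted, examples of the opposite direction, and the 5 genes nearest to the C1q profile. Some list genes that reached the limit only in cKO were named as well. Members and lists were chosen with earlier results of these data known. Promoter windows are those of RefSeq (GRCm38.p6), matched by gene ID, and were not found there for C1qa, Vcam1, Hmox1, Trf and Adgre1.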

Additional observations from a re-analysis of the deposited data

Results flagged for a closer look

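Cd68 was lower in cKO in litter 1 (-0.07) and higher in cKO in litter 2 (0.12), so the littermate pairs went in opposite directions, with the litter 2 difference above that of litter 1 by 0.18 on the log2 scale. With 1 array per genotype in each litter, this difference was not tested, and it was near the gap of 0.16 between the wt arrays for this gene.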

How the results depend on the processing

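The count of all probe sets past the adjusted threshold was 0, but 1 after quantile normalization and 42 with 1 probe set per gene, where fewer tests were made. C1qb was then the 1 member past it. With the litter as a block, for the littermate pairing, 0 members passed the adjusted test (limma, lowest adjusted p = 0.287). An unadjusted limma p under 0.05 was then found for 7 members instead of 5, with Vcam1 and Trf added. This was so for 5.33% of all tested probe sets, higher in cKO. Among the members, no adjusted call and no call by the study's thresholds changed with the block. Calls of list genes by the study's thresholds did change. Of those named as past them, Lrp1, Dock1 and Irf8 still passed with the block. Cd36, Pros1, Nfe2l2, Clec7a, Nr1h3, Spic and Itgad did not, while Cfb and Abca1 passed only with the block. With 1 array left out, the members past the study's thresholds numbered 0 (without wt 1) to 3 (without wt 2, where C1qa, C1qc and Axl passed and C1qb did not), and the members' median difference was 0.31 to 0.95. Cd68 had -0.055 without wt 2, within a range of -0.055 to 0.10. Of 80 values of single members in alternatives that kept all arrays, 79 kept direction and call and 1 (C1qb) gained a call. Of 40 with an array left out, 39 did and 1 reversed. The array-by-array counts under quantile normalization and median centring were chosen after seeing the data, and wt 1 was lowest for 8 members under quantile normalization and for 9 under median centring. T and NK cell genes had none left at a limit of 7.5. With 2 arrays per genotype, differences of the size of the gap between wt arrays could not be resolved.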
